A study of Mus musculus with 8 samples.

Results

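The effect of a Parp14 activation plasmid on microglia that were not deprived of oxygen and glucose was examined by comparing the 2 libraries labelled PARP14 with the 2 labelled Con. These are 4 of the 8 libraries of the series, all of primary microglia, the resident macrophages of the brain, from C57BL/6 mice. The labels give the age as postnatal day 2, and the growth protocol names C57BL/6J pups. Per the labels, all cultures were transfected for 24 h, with ACT-PARP14, which is meant to activate PARP14 by CRISPR, or with the control plasmid ACT-Con, so the Con cells were transfected too. The remaining libraries, OGD_Con and OGD_PARP14, carry OGD in their titles, which stands for oxygen-glucose deprivation and models ischaemia in culture. The treatment text gives 6 h of OGD for every sample, and the groups here follow the titles. Egln3 and Vegfa, targets of the hypoxia factor HIF-1, lay at 0.708 to 0.801 FPKM and at 0.154 to 0.295 FPKM in the 4 libraries compared. In OGD_Con replicates 1 and 2 and OGD_PARP14 replicate 1 Egln3 lay at 32.5, 37.7 and 33.8 FPKM and Vegfa at 11.2, 16.6 and 11.1 FPKM. OGD_PARP14 replicate 2 goes against its label in this respect, at 1.08 and 0.285 FPKM. Values of that library enter the comparison with the OGD groups and the fits of all 8 libraries. FPKM counts fragments per kilobase of model length for a fixed number of fragments mapped. No selection of transfected cells is described, and the cells of a library may hold the plasmid or not. The design text speaks of 2 independent experiments without saying which library came from which, and p-values therefore reflect only how far these libraries differ, which can be technical.

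PARP14 is a large ADP-ribosyltransferase that adds single ADP-ribose units to proteins and carries macrodomains that bind ADP-ribose. It has been described as a partner of STAT6, the transcription factor that interleukin 4 activates, and its gene is itself induced by interferon. In macrophages it has been linked to the balance between alternative activation and the interferon response. CRISPR activation brings a transcriptional activator to the start of a gene without cutting it, so the transcript of the target is the direct check of such a plasmid.

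A gene model was tested if it had a name and reached 1 FPKM in at least 2 of the 4 libraries, which 10587 of 54419 models did. Estimated depth was 13.4 to 17.0 M fragments, and 10446 to 10535 models per library reached 1 FPKM. The 13 microglia and macrophage markers summed to 3489 to 3718 FPKM, with Csf1r at 196 to 224 FPKM and Aif1 at 59.3 to 62.2 FPKM. Most of that sum came from C1qa (1243 to 1438 FPKM) and Tyrobp (976 to 1093 FPKM). Other members of the list were low, with P2ry12 at 1.99 to 3.95 FPKM, Cx3cr1 at 5.9 to 7.43 and Tmem119 at 11.8 to 12.5. Markers of other cells were low in both groups. The 9 astrocyte markers summed to 5.12 to 7.16 FPKM, the 9 neuron markers to 3.83 to 4.37, the 9 endothelial markers to 6.14 to 7.62 and the 9 fibroblast and mural markers to 0.55 to 0.88. Olig2, Mog, Cd3e and Ly6g, which define oligodendrocytes, T cells and neutrophils, were listed at 0 in all 4 libraries. A listed 0 in a table without counts can be a failed estimate and is not read as absence. Exact names can also belong to a short antisense locus: those named Hspa8 and Trem2 were at 0 in these libraries, while the joined models with the annotated genes held 525 to 560 and 11.1 to 18.8 FPKM. The oligodendrocyte sum of 28.1 to 30.1 FPKM came mostly from Cnp (18.6 to 20.6). The remainder came from other markers of that list, of which 3 of 10, Cnp included, passed the filter. The leukocyte sum of 35.6 to 41.6 came mostly from Ms4a7 (35.0 to 40.8), which macrophages also express.

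The gene model that holds Parp14 had lower FPKM in both libraries labelled PARP14 than in either Con library. This model, listed under the overlapping gene Gm49730, spans bases 35832874 to 35871544 of chromosome 16 (minus strand). Of its 4 transcripts, 3 are Parp14 transcripts of 7417, 4026 and 580 bases and 1 is a Gm49730 transcript of 1773 bases. The model has 1 value for all 4, so the parts of Parp14 and Gm49730 in it cannot be told apart. It is called Parp14 here. Con held 61.4 and 50.7 FPKM and PARP14 held 12.2 and 11.5 FPKM, or 56.1 ± 7.57 and 11.8 ± 0.50 (SD, n = 2 each). The groups did not overlap. In bulk libraries, fewer cells that express a gene and less RNA per cell cannot be told apart. The log2 fold change of FPKM + 1 was -2.15 (SE 0.12, 95% interval -2.47 to -1.82), with a limma adjusted p of 0.0779 over all models tested, which misses the threshold of 0.05. The sign is opposite to that of an activation, so the groups are called by their labels throughout and each direction rests on those labels. OGD_Con held 12.5 and 53.7 FPKM and OGD_PARP14 held 55.8 and 54.6 FPKM. Over the 8 libraries the values thus fell in separate ranges, 11.5 to 12.5 FPKM in 3 libraries and 50.7 to 61.4 FPKM in 5, and the lower range held both PARP14 libraries and 1 OGD_Con library. The plasmid difference under OGD minus that without OGD was 3.19 log2 units (SE 0.84, limma adjusted p = 0.822).

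The genes around Parp14 did not have such a gap. Dtx3l, an E3 ubiquitin ligase that works with PARP9, lies on the same strand from 35854714 to 35939151, and its model overlaps that of Parp14. It held 41.2 and 34.3 FPKM in Con and 42.4 and 36.8 FPKM in PARP14 (log2 fold change 0.07, 95% interval -0.29 to 0.43). Parp9, a catalytically weak member of the same enzyme family, starts head to head with Dtx3l on the plus strand. It held 48.6 and 47.9 FPKM in Con and 50.7 and 43.9 FPKM in PARP14 (log2 fold change -0.03, 95% interval -0.30 to 0.24). The groups overlapped for both. StringTie divides fragments among overlapping models, and summing Parp14 with Dtx3l gave 103 and 85.1 FPKM in Con and 54.6 and 48.3 in PARP14, a log2 fold change of -0.85 (limma adjusted p = 0.645). Within 500 kb of the Parp14 model lie 46 other named models, of which 10 were tested. None was called, their median log2 fold change was 0.055, and 3 lay higher in both PARP14 libraries than in both Con libraries, where 12.4% of all models tested did. The neighbour farthest from 0 was Kpna1, an importin, at 2.65 and 8.05 FPKM in Con and 2.48 and 2.67 in PARP14 (log2 fold change -0.68, SE 0.46).

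**Figure D1:**
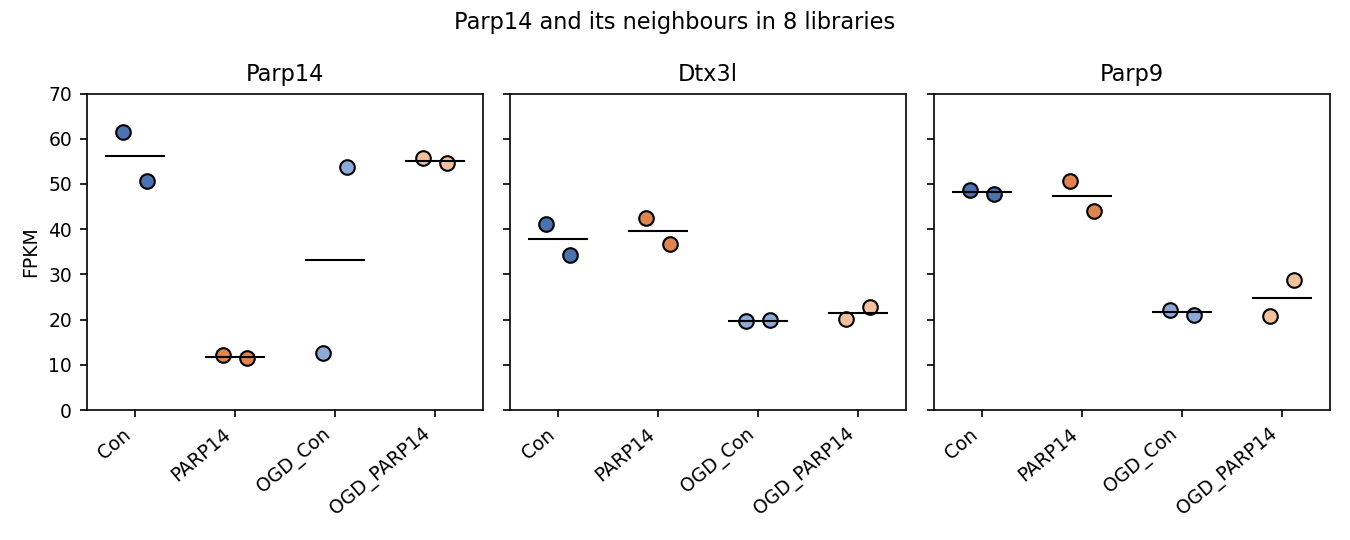
FPKM of Parp14, Dtx3l and Parp9 in each of the 8 libraries (points, replicate 1 on the left) with the group mean (line). Parp14 lay at 12.2 and 11.5 FPKM in PARP14 against 61.4 and 50.7 in Con, while the values of Dtx3l and Parp9 overlapped between these groups.

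The start of Dtx3l is shown because its model overlaps that of the target, and that of Isg15, an interferon-induced ubiquitin-like modifier, because it illustrates the control of the interferon genes described further on. Each runs from 250 bases before to 50 bases after the gene's start, 5′ to 3′ on the minus strand (RefSeq, GRCm38.p6), at chr16:35938978-35939277 and chr4:156200769-156201068. Capitals mark matches to GAAANNGAAA, the core of the element that interferon-activated factors bind, or to TTCNNNNGAA, the spacing bound by STAT6.
Dtx3l: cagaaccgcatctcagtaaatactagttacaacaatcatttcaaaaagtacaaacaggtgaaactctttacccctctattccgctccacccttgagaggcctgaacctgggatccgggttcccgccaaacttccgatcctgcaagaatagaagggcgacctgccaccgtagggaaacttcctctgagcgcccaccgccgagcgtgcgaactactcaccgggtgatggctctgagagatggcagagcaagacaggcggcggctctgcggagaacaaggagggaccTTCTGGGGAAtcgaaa
Isg15: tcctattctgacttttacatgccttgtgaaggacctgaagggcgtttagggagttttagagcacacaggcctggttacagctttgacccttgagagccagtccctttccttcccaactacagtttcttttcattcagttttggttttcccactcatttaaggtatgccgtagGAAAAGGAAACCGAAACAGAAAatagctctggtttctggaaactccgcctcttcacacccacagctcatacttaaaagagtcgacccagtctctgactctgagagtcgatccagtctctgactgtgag
Both strands were searched. Isg15 held 3 overlapping matches to GAAANNGAAA and Dtx3l held 1 match to TTCNNNNGAA. Of 32851 promoter windows of this length, 3.44% held GAAANNGAAA and 6.95% TTCNNNNGAA. A match describes the letters of the window and is not a measured binding site.

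Across the transcriptome the libraries of one group differed from each other more than the groups did. The Con replicates lay at least 1 log2 unit apart in 159 models (1.5%) and the PARP14 replicates in 147 (1.39%), while the group means did so in 50 (0.472%). A mean of 2 libraries averages part of the spread, which lowers the last count. The median absolute difference was 0.11 between the Con replicates, 0.105 between the PARP14 replicates and 0.063 between the group means. Pearson correlations over models were 0.982 within Con and 0.983 within PARP14. Between groups they were 0.985 and 0.986 for libraries of the same replicate number, the highest of all pairs. Libraries of different groups and different numbers had 0.983 in each pair. The median log2 fold change over all models was -0.007, 47.0% were positive, and the central 90% lay between -0.214 and 0.239.

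**Figure D2:**
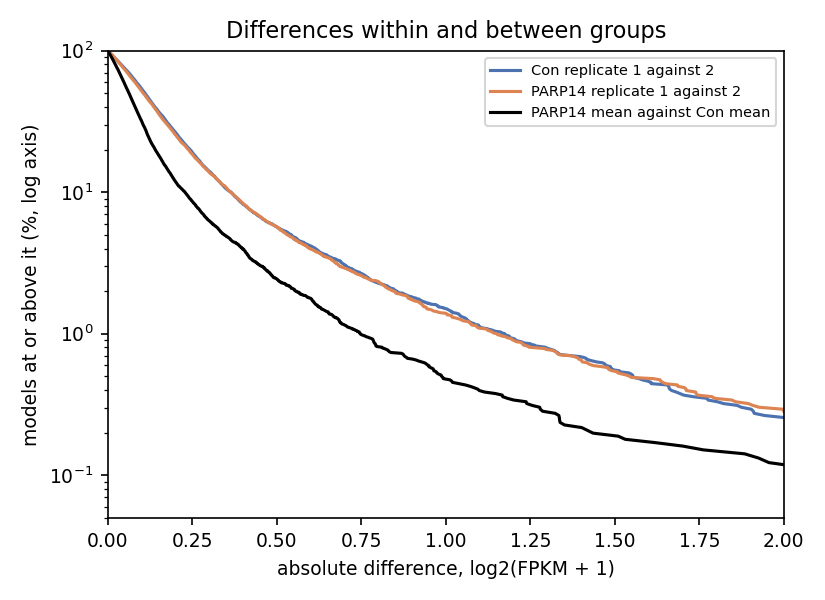
Share of tested models (y axis, percent, log axis) whose absolute difference on log2(FPKM + 1) reached the value on the x axis, for the Con replicates, the PARP14 replicates and the group means. At 1 log2 unit the curves stand at 1.5%, 1.39% and 0.472%.

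At a limma adjusted p under 0.05, 5 models differed, which is 0.0472% of those tested: 4 rose (0.0378%) and 1 fell (0.00945%) in PARP14. In 2905 models (27.4%) both libraries of one group lay above both of the other, 1318 higher (12.4%) and 1587 lower (15.0%). With 2 libraries per group such an order often arises without any difference, so this count is not read as a result. A gap of at least 1 log2 unit between the groups was found in 14 models (0.132%), 8 higher (0.0756%) and 6 lower (0.0567%). An unadjusted p under 0.05 was reached by 336 models (3.17%), 184 higher (1.74%) and 152 lower (1.44%). That share is no larger than the threshold of 0.05 would let pass without any difference. With Con replicate 1 or either PARP14 replicate left out limma called 0 models, and without Con replicate 2 it called 1, Junb, with 385 to 448 models at an unadjusted p under 0.05 in these fits. It called 1 model in the fit of all 8 libraries, whose spread takes in OGD_PARP14 replicate 2, the library that goes against its label. It called 1 with no filter, Gm2274. It called 2 without models that lack an Ensembl transcript and 2 after models of the same name were summed, in both cases Gm2274 and Gm6793. Of the 4 models that rose, 3 were listed at 0 in both Con libraries and passed the filter only through PARP14, the group where they are high, so their number supports nothing on its own. The same holds for a short locus in Dynll2, among the 8 higher models with a gap of at least 1 log2 unit.

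Of the 5 models called, 1 is a whole annotated gene with an established name. Golph3l, which encodes a Golgi phosphoprotein, shares a model with Gm42671 on chromosome 3 from 95588934 to 95619247. It held 4.27 and 4.40 FPKM in Con and 14.3 and 14.1 in PARP14. Its log2 fold change was 1.51 (SE 0.07, limma adjusted p = 0.0396). The call depended on the setting. It was lost in the fit of all 8 libraries, with no filter, with a pseudocount of 0.1 and with the replicate number as a block. Neither leaving out models that lack an Ensembl transcript nor summing models of the same name kept it. OGD_Con held 16.7 and 15.9 FPKM and OGD_PARP14 5.34 and 17.9, so the level of the PARP14 libraries was also met in 3 of the 4 OGD libraries, with either plasmid.

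The model called with the widest gap is a locus of 1701 bases on the minus strand of chromosome 19, from 41525271 to 41526971, assembled inside Lcor, a gene for a nuclear receptor corepressor that lies on the plus strand. It was listed at 0 in both Con libraries and at 39.7 and 52.9 FPKM in PARP14. A plus-strand locus that starts 2 bases earlier and ends at the same base held 42.3 and 62.8 FPKM in Con and 39.7 and 52.8 in PARP14. In PARP14 the strands thus carried nearly equal values, while in Con the minus strand was at 0. In OGD_Con the minus-strand locus held 0 and 56.3 FPKM, and in OGD_PARP14 50.6 and 0. Whether strand was used in assigning fragments is not given in the sources used here, and reads of a gene and its antisense partner then cannot be told apart. The full Lcor model held 1.01 to 1.29 FPKM in the 4 libraries. Summed over models named Lcor, the values were 43.6 and 63.9 FPKM in Con and 80.5 and 107 in PARP14, a log2 fold change of 0.80 (limma adjusted p = 1). This sum may include the same signal on both strands. The plus-strand locus alone had a log2 fold change of -0.17 (SE 0.25). It held 59.9 and 56.2 FPKM in OGD_Con and 0 and 38.2 in OGD_PARP14.

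The other 3 models called fall outside the rule for naming genes and are named after their values were seen. A minus-strand locus of 278 bases in Elmo1, a gene for an engulfment adaptor, was listed at 0 in both Con libraries and at 6.06 and 5.60 FPKM in PARP14. The main Elmo1 model held 21.4 and 21.1 FPKM in Con and 21.4 and 21.1 in PARP14. Summed over models named Elmo1, the values were 21.4 and 21.1 FPKM in Con and 27.4 and 26.7 in PARP14, a log2 fold change of 0.33 (limma adjusted p = 1). Gm2274, a predicted gene, was listed at 0 in Con and at 5.84 and 5.92 FPKM in PARP14. It held 5.26 and 5.74 FPKM in OGD_Con and 5.32 and 0 in OGD_PARP14. Gm6793, a predicted gene on the minus strand of chromosome 8 that overlaps the telomere protein gene Terf2ip on the plus strand, was the model that fell. It held 57.0 and 57.7 FPKM in Con and 6.01 and 5.37 in PARP14, a log2 fold change of -3.13 (SE 0.08, limma adjusted p = 0.00729). Terf2ip itself held 3.19 and 3.35 FPKM in Con and 3.04 and 3.16 in PARP14.

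**Figure D3:**
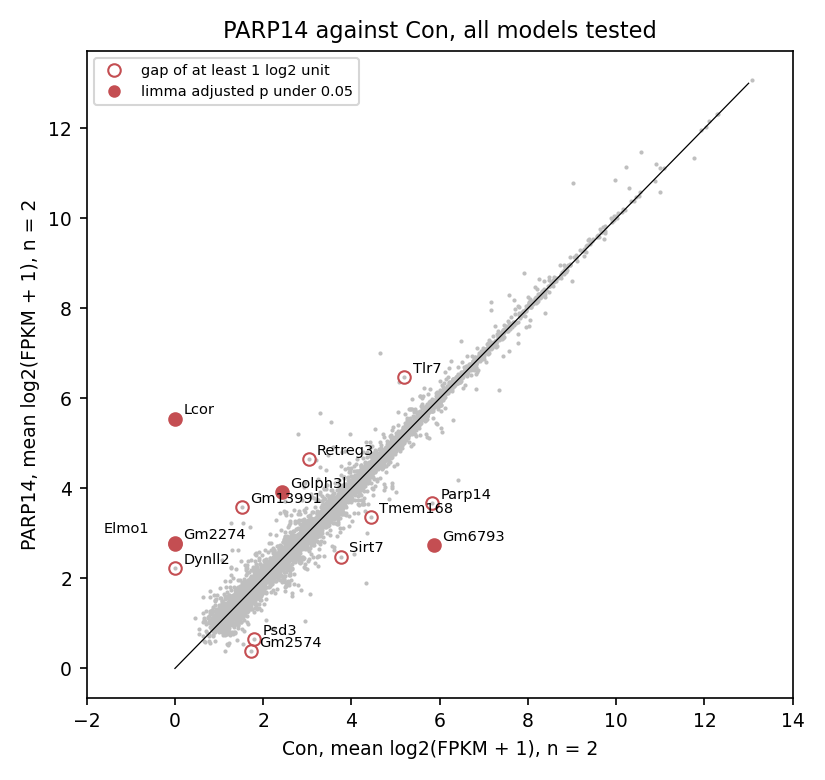
Mean log2(FPKM + 1) of the Con libraries (x axis) and the PARP14 libraries (y axis) for the 10587 models tested, with the line of equality. Filled circles are the 5 models called and open circles the others of the 14 with a gap of at least 1 log2 unit, among them Parp14 below the line and Tlr7 above it.

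Fewer than 10 models were called in each direction, so the models with the widest gap at a mean of at least 5 FPKM are given as values, and none of them passed the test. Retreg3, a receptor for autophagy of the endoplasmic reticulum, held 8.13 and 6.31 FPKM in Con and 24.2 and 24.0 in PARP14 (log2 fold change 1.62, SE 0.13, limma adjusted p = 0.176). Tlr7, the endosomal sensor of single-stranded RNA, held 39.9 and 31.8 FPKM in Con and 94.4 and 81.7 in PARP14 (log2 fold change 1.28, SE 0.15, limma adjusted p = 0.428). The values of Tlr7 in OGD_Con were 57.5 and 20.5 FPKM and in OGD_PARP14 22.8 and 123, which overlapped. Cox4i1, a subunit of cytochrome c oxidase, held 141 and 144 FPKM in Con and 287 and 274 in PARP14. Under OGD its order was the opposite, with 264 and 211 FPKM in OGD_Con and 147 and 110 in OGD_PARP14.

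Vsir, which encodes the immune checkpoint protein VISTA, held 33.4 and 31.7 FPKM in Con and 107 and 60.9 in PARP14. Pgam5, a mitochondrial phosphatase, held 7.42 and 7.72 FPKM in Con and 13.4 and 12.4 in PARP14 (log2 fold change 0.70, SE 0.08, limma adjusted p = 0.424). Its OGD libraries had the same order, with 6.61 and 6.99 FPKM in OGD_Con and 12.9 and 12.8 in OGD_PARP14. Cir1, Knop1, the flippase gene Atp8a1, the Golgi sorting adaptor gene Gga3 and the Toll-like receptor homologue Cd180 had log2 fold changes of 0.82, 0.69, 0.69, 0.65 and 0.95. Cd180 held 22.7 and 13.3 FPKM in PARP14 against 9.15 and 7.89 in Con, and Vsir and Cd180 both varied widely within PARP14.

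On the lower side, besides Parp14, the widest gap belonged to the joined model of the deacetylase gene Sirt7, Mir6936 and the small Maf factor gene Mafg. It held 12.9 and 12.3 FPKM in Con and 4.80 and 4.40 in PARP14 (log2 fold change -1.28, SE 0.08, limma adjusted p = 0.103), and 10.0 to 10.6 FPKM in all 4 OGD libraries. Tmem168 held 20.5 and 20.96 FPKM in Con and 9.65 and 8.86 in PARP14 (log2 fold change -1.08, SE 0.08, limma adjusted p = 0.149). The joined model of Map2k7, a kinase that activates JNK, held 9.53 and 9.17 FPKM in Con and 4.95 and 4.35 in PARP14 (log2 fold change -0.88). Tlr1, which recognises bacterial lipopeptides together with TLR2, held 59.3 and 71.3 FPKM in Con and 33.7 and 41.2 in PARP14 (log2 fold change -0.79). The others were the histone H4 methyltransferase gene Kmt5a (-0.74), the phosphatase gene Dusp3 (-0.69), Tmem134 (-0.65), the U1 splicing factor gene Snrnp70 (-0.54), the calcium channel gene Orai1 (-0.75), the joined model of Raly (-0.48) and Lgals3bp (-0.49).

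The models with a gap of at least 1 log2 unit are described here beside all models tested. No Ensembl transcript underlies 4 of these 14 models (28.6%), against 103 of all models tested (0.973%). Predicted gene names were borne by 5 of the 14 (35.7%), against 11.2% of all models tested, and the 5 include Parp14 itself, whose model is deposited as Gm49730. The loci in Lcor, Elmo1 and Dynll2 and the model Gm2274 passed the filter only through PARP14, the group where they are high. Psd3 and Gm2574 passed it only through Con, where they are high. Neither share therefore supports a difference in kind. Of the 14, 1 had its OGD groups apart in the opposite direction, which was Parp14, 1 in the same direction, which was Psd3, and 12 had OGD groups that overlapped. The gaps under OGD were narrow, at 0.022 log2 units for Parp14 and 0.038 for Psd3. Psd3 held 2.35 and 2.63 FPKM in Con and 0.57 and 0.58 in PARP14. A short plus-strand locus in Dynll2, a dynein light chain gene, was listed at 0 in Con and at 5.49 and 2.34 FPKM in PARP14, while the main Dynll2 model held 27.2 and 28.0 FPKM in Con and 29.2 and 29.7 in PARP14. Psd3, Dynll2 and Gm2574 are named after their values were seen.

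**Figure D4:**
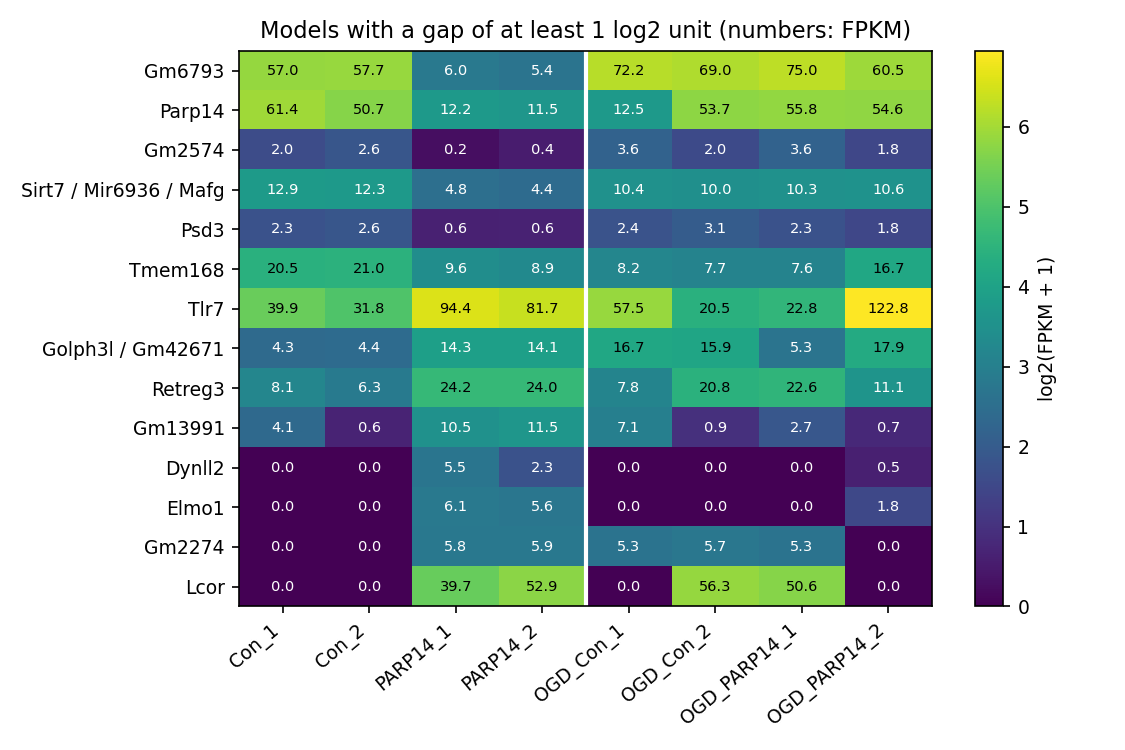
The 14 models with a gap of at least 1 log2 unit between Con and PARP14, ordered by log2 fold change, in all 8 libraries. Colour gives log2(FPKM + 1) and the numbers give FPKM, and the minus-strand Lcor locus in the lowest line is at 0 in 4 of the 8 libraries.

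In the OGD pair no model was called in the fit of all 8 libraries, with a smallest limma adjusted p of 0.269 and 356 models at an unadjusted p under 0.05. Of the 2905 models whose groups did not overlap without OGD, 474 did not overlap in the same direction under OGD, 487 did so in the opposite direction and 1944 overlapped. Under OGD, groups that do not overlap were found in 3451 of all models tested (32.6%). OGD_PARP14 replicate 2, which goes against its label, enters all of these counts and the overlaps under OGD given above. They therefore cannot show whether the plasmid difference recurs under OGD. The plasmid difference itself differed between the conditions in 1 model (0.00945%), Gm6793, by 3.06 log2 units (SE 0.19, limma adjusted p = 0.0391), while 198 models (1.87%) had an unadjusted p under 0.05. Gm6793 held 72.2 and 69.0 FPKM in OGD_Con and 75.0 and 60.5 in OGD_PARP14. Without OGD_PARP14 replicate 2 this count was 8, and with OGD_PARP14 replicate 1 left out instead it was 3186, the group then resting on the library that goes against its label.

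Lpar5, a receptor for lysophosphatidic acid that shares a model with 2010008C14Rik, did not separate the groups. It held 8.87 and 2.24 FPKM in Con and 2.65 and 7.36 in PARP14 (log2 fold change -0.03, 95% interval -1.96 to 1.89). Of 7 lysophospholipid signalling genes tested, the median log2 fold change was 0.007. The member with the smallest p was Plpp2, a lipid phosphate phosphatase, at 5.08 and 4.89 FPKM in Con and 6.27 and 6.79 in PARP14 (log2 fold change 0.33).

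Pathway genes were described with 36 lists, which hold 392 models tested. None of these was called, 14 reached an unadjusted p under 0.05 (3.57%, against 3.17% of all models tested), and in 86 the groups did not overlap (21.9%, against 27.4%). A gap of at least 1 log2 unit was found only for Parp14 and Tlr7 among them.

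Among the ADP-ribosyltransferases, 15 of 16 were tested and the median log2 fold change was -0.012. Apart from Parp14 they lay between -0.10 and 0.14. Parp1, the main poly(ADP-ribose) polymerase, shares a model with Mir6904 and held 38.2 and 38.5 FPKM in Con and 38.4 and 34.8 in PARP14. Parp12, an interferon-induced member, held 81.2 and 69.2 FPKM in Con and 84.2 and 76.0 in PARP14. The 11 hydrolases and readers of ADP-ribose had a median of 0.052, and 0 of them had groups that did not overlap, against 27.4% of all models tested.

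The interleukin 4 branch had medians near 0, with overlapping groups for its receptor and its transcription factor. Stat6 held 59.9 and 59.0 FPKM in Con and 57.6 and 60.7 in PARP14 (log2 fold change -0.01, 95% interval -0.20 to 0.19). Il4ra, the receptor chain, held 25.4 and 25.5 FPKM in Con and 26.2 and 25.1 in PARP14 (log2 fold change 0.01, 95% interval -0.18 to 0.20). The 8 pathway genes tested had a median of -0.001. Of 16 genes of alternative activation only 6 passed the filter, with a median of 0.038, while Retnla and Ccl22 were listed at 0 and Arg1 lay at 0.014 to 0.418 FPKM. Chil3, a chitinase-like protein of alternatively activated macrophages, held 16.2 and 129 FPKM in Con and 16.7 and 137 in PARP14. Its values followed the replicate number and not the plasmid, and its log2 fold change of 0.06 has a 95% interval of -3.92 to 4.04.

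Interferon-stimulated genes had mostly positive, small log2 fold changes. Of 26 models tested, 20 had a positive log2 fold change, the median was 0.098, none was called and 4 had both PARP14 libraries above both Con libraries, a share near the 12.4% of all models tested. Replicate 1 exceeded replicate 2 by a median of 0.293 log2 units in Con and 0.161 in PARP14. Isg15 held 294 and 237 FPKM in Con and 314 and 272 in PARP14 (log2 fold change 0.15, 95% interval -0.25 to 0.55). Mx1, an antiviral GTPase, held 29.8 and 13.8 FPKM in Con and 33.3 and 29.7 in PARP14, the largest log2 fold change of the list at 0.60 (95% interval -0.44 to 1.65). Ifitm3, which blocks viral entry, held 516 and 473 FPKM in Con and 567 and 559 in PARP14 (log2 fold change 0.19). Without Con replicate 2 the median of the list was -0.053 and without Con replicate 1 it was 0.181.

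The interferon-induced GTPases include guanylate-binding and immunity-related families that attack the vacuoles of intracellular pathogens. Their median was 0.139 over 12 models, 10 of them positive, where 47.0% of all models tested were positive. None was called. In 2 both PARP14 libraries lay above both Con libraries and in 1 below, where 12.4% and 15.0% of all models tested did. Here too replicate 1 lay above replicate 2, by a median of 0.267 in Con and 0.257 in PARP14, and without Con replicate 2 the list's median was -0.01. Several models join near-identical genes of these families, and their values are uncertain to that extent. The 15 genes of interferon reception and signalling had a median of -0.019. Stat2, a component of the factor that type I interferon activates, held 50.9 and 41.8 FPKM in Con and 66.6 and 63.2 in PARP14 (log2 fold change 0.48, 95% interval 0.15 to 0.81). Ifnar1, a chain of the type I interferon receptor, held 14.5 and 16.0 FPKM in Con and 12.6 and 12.2 in PARP14 (log2 fold change -0.28, 95% interval -0.51 to -0.05). Both intervals leave out 0 but carry no correction, and both limma adjusted p were 1.00.

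The antigen presentation list had the highest number of models with groups apart in 1 direction. In 11 of 19 MHC class I and antigen processing models both PARP14 libraries lay above both Con libraries and in 0 below, where 12.4% of all models tested lay above and 15.0% below. Several of these gaps were narrow, at 0.002 log2 units for Psmb9, 0.012 for H2-Q7 and 0.032 for B2m, against 0.267 for Tap1. The median was 0.101, 16 of 19 were positive, and none was called. Replicate 1 exceeded replicate 2 by a median of 0.126 log2 units in Con and 0.045 in PARP14. Tap1, a subunit of the peptide transporter, held 22 and 22.6 FPKM in Con and 28.6 and 27.4 in PARP14 (log2 fold change 0.32, SE 0.07). Tapbp, the tapasin gene, in a model joined with Zbtb22, held 30.4 and 28.0 FPKM in Con and 35.5 and 41.0 in PARP14 (log2 fold change 0.38, SE 0.10). Psme1, a proteasome activator subunit, held 61.6 and 59.5 FPKM in Con and 71.9 and 67.2 in PARP14 (log2 fold change 0.20, SE 0.08). B2m, the light chain of class I molecules, held 4326 and 4411 FPKM in Con and 4628 and 4510 in PARP14 (log2 fold change 0.06, SE 0.07). Under each omission of 1 library the median of the list stayed between 0.055 and 0.175. The 4 MHC class II genes tested had a median of 0.046.

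The 15 NF-kB target genes tested had a median of 0.021. Tnf held 58.6 and 63.7 FPKM in Con and 56.2 and 62.6 in PARP14 (log2 fold change -0.04, 95% interval -0.30 to 0.22). Nlrp3, the inflammasome sensor, lay near the filter at 0.902 and 0.900 FPKM in Con and 1.19 and 1.67 in PARP14 (log2 fold change 0.35). The 12 chemokine ligands had a median of 0.121, which was -0.024 without PARP14 replicate 2. Ccl12, a ligand of the receptor CCR2, held 7.28 and 6.04 FPKM in Con and 9.62 and 8.09 in PARP14 (log2 fold change 0.36), and Il6 lay at 0.029 to 0.139 FPKM. The 17 nucleic acid sensing models had a median of 0.002, and Tlr7 was the member farthest from it.

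Genes of microglial state had medians of 0.040 for 13 homeostatic, 0.033 for 13 disease-associated and 0.019 for 13 complement genes. P2ry12, the purinergic receptor of resting microglia, was low in these cultures, at 1.99 and 2.14 FPKM in Con and 3.95 and 3.46 in PARP14 (log2 fold change 0.61, SE 0.09, limma adjusted p = 0.535). Tmem119, another marker of resting microglia, held 12.1 and 11.8 FPKM in Con and 12.1 and 12.5 in PARP14.

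Stress and metabolic lists stayed near the median of all models. The integrated stress and unfolded protein response had a median of 0.061 over 19 genes, with its transcription factor Atf4 at 40.4 and 59.4 FPKM in Con and 73.9 and 74.7 in PARP14 (log2 fold change 0.59, SE 0.20). The hypoxia list had a median of -0.043 over 16 genes, with Mxi1, a Myc antagonist, at 2.05 and 2.57 FPKM in Con and 1.57 and 1.55 in PARP14 (log2 fold change -0.37). Among 14 oxidative stress genes the median was -0.029, and the metallothionein gene Mt2 held 13.7 and 12.6 FPKM in Con and 16.4 and 15.8 in PARP14 (log2 fold change 0.27). Medians of the glycolysis, heat shock, p53 target, BCL-2 family, and JNK and p38 lists were -0.005, 0.024, 0.001, 0.041 and -0.033.

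Among 10 immediate early genes with a median of 0.050, Junb, an AP-1 subunit, varied within a group by more than any group difference of the list. It held 0.65 and 56.7 FPKM in Con and 49.1 and 50.8 in PARP14 (log2 fold change 2.38, SE 1.79), and 108 and 1.11 FPKM in OGD_Con. Without Con replicate 2 its log2 fold change was 4.95 and it was the only model called (limma adjusted p = 0.0465), and with all 4 libraries its limma adjusted p was 1.00. Cell cycle and cholesterol synthesis genes, with group medians of -0.017 and 0.005, differed between replicates in both groups. Replicate 1 lay below replicate 2 by medians of -0.497 and -0.303 for 12 cell cycle genes, in Con and PARP14, and by -0.503 and -0.391 for 18 cholesterol synthesis genes. Hmgcs1, an enzyme early in cholesterol synthesis, held 8.32 and 10.7 FPKM in Con and 8.94 and 11.2 in PARP14. The 10 mitochondrially encoded models had a median of -0.022, and 0 of them had groups that did not overlap, against 27.4% of all models tested.

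**Figure D5:**
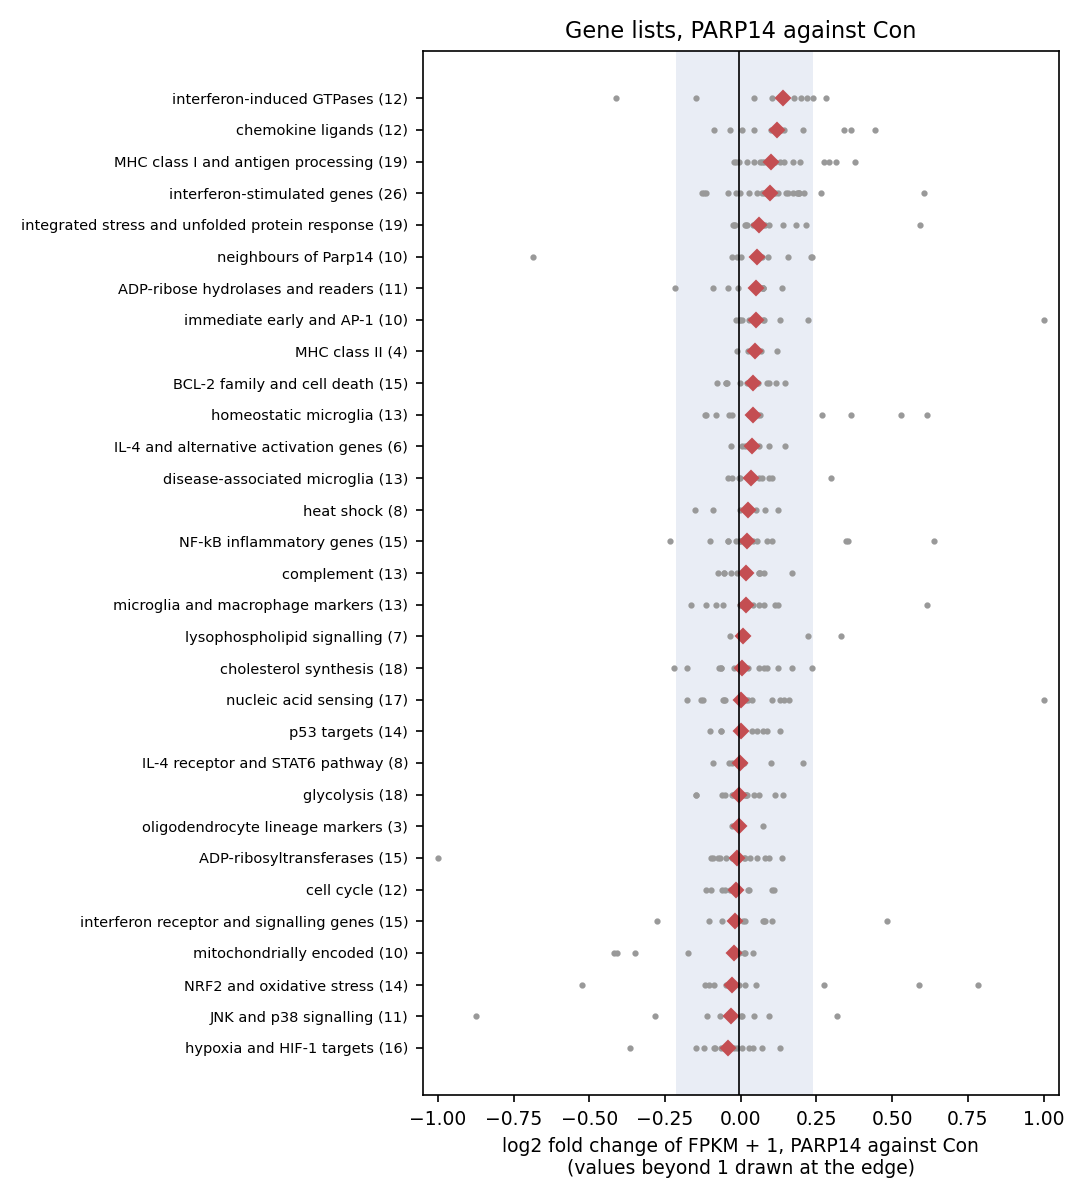
Log2 fold change of PARP14 against Con (x axis) for the tested models of each list with at least 3 of them (grey points, number in brackets) and the list's median (diamond). The line marks the median of all models, -0.007, the shaded band the central 90% of all models, and all 31 list medians lie inside it, the farthest being the interferon-induced GTPases at 0.139.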

How the data were processed

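Polyadenylated RNA of 8 libraries was sequenced as paired ends after stranded dUTP library preparation with unique molecular identifiers, per the labels' protocols. The authors deposited 1 table of FPKM, and per the submitters' processing notes they used HISAT, StringTie and edgeR (no versions given) and the build mm9. Of 39015 models with an Ensembl identifier, 96.2% have the coordinates of GENCODE M21 (GRCm38), so coordinates are given as deposited. Joined names mark 703 of the models tested (6.64%), each with 1 value for all its genes. The table holds no fragment counts. The depth estimate rests on how far apart the smallest FPKM are spaced, and low values rest on few fragments.

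Here FPKM were taken as log2(FPKM + 1), a scale that understates changes of low genes. limma 3.58.1 in R 4.3.3 (lmFit, then eBayes with neither trend nor robust) was run on the 4 libraries, with 2 residual and 2.12 prior degrees of freedom. Benjamini-Hochberg adjustment ran over all 10587 models, and adjusted p under 0.05 counted as a call. The interaction was fitted on 8 libraries. The script was tested on simulated data. Intervals are limma's 95% intervals, uncorrected.

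The members and lists were chosen with earlier results of these data known, so lists are described by counts and medians. Text names Parp14 and Lpar5, up to 10 called models per direction with a mean of at least 5 FPKM, filled to 12 by the widest gap (predicted names left out), and in each list up to 4 members by p. Further list members given as values, and those marked so, were chosen after their values were seen. A model under the exact name came before a joined one, and for 3 list entries (Gvin1, Trem2 and Hspa8) a joined model with higher values was passed over. Of the list entries, 9 had no model and were not analysed here. Alternatives were other libraries in the fit, a replicate block, filters, pseudocounts, normalizations, variance settings and leaving out each library. Python 3.11.15, pandas 2.3.3 and matplotlib 3.10.9 were used.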

Additional observations from a re-analysis of the deposited data

Results flagged for a closer look

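Gm6793 was flagged because its plasmid difference differed between the conditions, by 3.06 log2 units in the interaction test (limma adjusted p = 0.0391). It was lower in both libraries labelled PARP14 without OGD, at 6.01 and 5.37 FPKM, than in the other 6, which held 57.0 to 75.0 FPKM. The call was lost when any of the Con, PARP14 or OGD_Con libraries was left out, when the replicate number entered as a block, and with a pseudocount of 0.1. Terf2ip, on the opposite strand, held 2.08 to 3.35 FPKM in the 8 libraries. The cause was not tested.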

How the results depend on the processing

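Against 5 models called with the 4 libraries, limma called 1 in the fit of all 8 libraries, 6 without OGD_PARP14 replicate 2 in a fit of 7 (Sirt7 and Tmem168 among them, 4 shared), 1 with no filter, 2 without models that lack an Ensembl transcript and 2 after models of the same name were summed, both settings chosen after the data were seen. Leaving out each of the 4 libraries gave 0 to 1, a fit in which the lone library is assumed to vary like the other group. With the replicate number as a block 0 models were called and 452 had an unadjusted p under 0.05. Same-numbered libraries deviated together with a correlation of 0.127, and they were the most alike of all pairs, at 0.985 and 0.986. The labels do not say whether a number stands for a shared experiment. The main fit leaves the number out, so differences that follow it add to its spread. Compared within numbers, after the data were seen, 23.9% of all models tested were higher in PARP14 for both numbers and 27.5% were lower for both. The largest shares lower for both were 37.5% for the hypoxia list, 36.4% for JNK and p38 and 35.7% for oxidative stress. The lists with the highest shares of models higher for both numbers, of 31 with at least 3 models tested, are given here. They were 9 of 12 interferon-induced GTPase models (75.0%), 14 of 19 MHC class I models (73.7%) and 15 of 26 interferon-stimulated models (57.7%). Then came 10 of 19 integrated stress and unfolded protein response models (52.6%). The next were the alternative activation genes and the neighbours of Parp14 at 50.0%. Shares higher for both ran down to 22.2% for glycolysis, 21.4% for oxidative stress and 18.8% for hypoxia. The lowest were 10.0% for mitochondrially encoded models and 0.0% for oligodendrocyte lineage markers. The fits with a filter at 5 FPKM, a pseudocount of 5, quantile normalization, median centring, an intensity trend and robust variances called 5, the same models as before, and a pseudocount of 0.1 called 4 of them. Parp14 stayed lower in PARP14 under every setting tried, between -2.28 and -0.85, with limma adjusted p from 0.0556 to 1.

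The interaction count of 1 became 0 with the replicate block (193 at an unadjusted p under 0.05) and 0 with a pseudocount of 0.1 (208), and 0 to 3186 over the fits that leave out 1 library. Lists at least 0.1 from the median of all models numbered 4, against 1 with a pseudocount of 5 and 7 to 9 over the fits that leave out 1 library. Models at least 1 log2 unit apart, in settings chosen after the data were seen, numbered 276 between the Con replicates, 265 between the PARP14 replicates and 104 between group means with a pseudocount of 0.1, and 63, 56 and 26 with a pseudocount of 5. Taking for Gvin1, Trem2 and Hspa8 the joined model with the higher mean, a choice made after the data were seen, left 4 such lists and 0 members called (14 at an unadjusted p under 0.05). Stat6 reversed with median centring (0.002). Leaving out 1 library moved the log2 fold change of Stat6 between -0.044 and 0.03, Il4ra between -0.016 and 0.04, Parp9 between -0.132 and 0.071, Dtx3l between -0.06 and 0.198, Isg15 between -0.006 and 0.305, Tnf between -0.119 and 0.034, Chil3 between -1.422 and 1.545, Junb between -0.181 and 4.947 and Lpar5 between -0.838 and 0.769. The causes were not tested. No fragment counts were used, so counting error at low FPKM could not be given.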
